A study of Mus musculus with 11 samples.

Results

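The 10 genes Wnt4, Fzd4, Fzd7, Lgr5, Lrp5, Lrp6, Vangl2, Axin2, Ctnnb1 and Tcf7l2 encode a ligand, the receptors and coreceptors, and the effectors of Wnt signalling that have been studied in the stem cells of skeletal muscle. They were chosen by symbol, as the rows of the deposited count table whose Ensembl identifier maps to these names. All 10 were found among the 48709 genes of the table, and all 10 were among the 31999 genes that passed the filter on low counts.

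Muscle stem cells, also called satellite cells, came from the pectoral, forelimb and hindlimb muscles of C57BL/6 mice with the transgene Tg:Pax7-nGFP, in which a nuclear green fluorescent protein follows the activity of the Pax7 gene. All groups shared the strain, the transgene and fixation in 0.5% paraformaldehyde. In T0 whole muscle was fixed for 1 h at 4°C before the cells were taken out. In T3 the cells were isolated and sorted first and then fixed for 30 min on ice. T5 differed from T3 by a further 2 h at 37°C, which the protocol places before the isolation, in dissected muscle, and the series description after it. What the T5 cells met in those 2 h is therefore not settled. Whether tissue (T0) or sorted cells (T3, T5) were fixed cannot be told apart from the isolation itself. Ages, sexes and the number of animals pooled are not given in the labels, nor whether the replicates stem from different animals. The p-values therefore cover only the spread among these samples, which may be technical.

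Wnt proteins are secreted lipid-modified ligands that bind Frizzled receptors. In the canonical branch a coreceptor, Lrp5 or Lrp6, joins the receptor, the complex that destroys β-catenin (the product of Ctnnb1) is held back, and β-catenin enters the nucleus, where it acts with TCF and LEF factors such as Tcf7l2. In the planar polarity branch Vangl proteins place Frizzled signals along an axis of the cell. In muscle, Wnt4 from the fibre has been linked to the quiescence of satellite cells, Fzd7 with Vangl2 to their symmetric division, and Axin2 and Lgr5 are widely used reporters of canonical signalling.

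There were 3 libraries of T0, 4 of T3 and 4 of T5. Counts of T5 libraries with the same letter were summed, giving n = 3, n = 4 and n = 2. Libraries with the same letter were not always nearer to each other than to the others: the chi-square per gene was 83.1 within A and 91.3 within B, and 14.3 to 127 between the letters. Every n, SD and p of T5 rests on this grouping. Total counts ranged over 49078859 to 67251946 (T0), 52632553 to 72638711 (T3) and 130354084 to 177915889 (summed T5 replicates). Each of the 10 genes had 235 to 36014 reads in each library. The T0 replicates differed more from each other than those of T3 did, with a chi-square per gene of 145 to 394 between T0 pairs against 45.5 to 129 between T3 pairs. T0 replicate 3 held the lowest T0 value in 7 of the 10 genes, and the results that rest on it are given with and without it. The summed level of 10 satellite cell markers was 5315 to 7795 CPM (counts scaled to a common library size) in T0, 2149 to 2630 CPM in T3 and 1706 to 1759 CPM in T5, and none of these markers was at 0 in any replicate. Pax7 itself, a large part of the T0 sum, stood at 3137 to 4440 CPM in T0 and at 249 to 400 CPM in T3. The 10 markers did not all fall: 2 were called higher and 5 lower in T3 than in T0. In T5 against T0, 1 was called higher and 8 lower. Sdc4, for example, stood at 82.7 to 188 CPM in T0 and at 767 to 1108 CPM in T3. The summed level of 8 myofibre markers was 61.6 to 70.8 CPM in T0, with 117 to 174 CPM in T3 and 105 to 108 CPM in T5. Ttn made up a large part of that sum, at 42.7 to 50.1 CPM (T0), 70.6 to 97.6 CPM (T3) and 79.3 to 81.4 CPM (T5). Of the 8 markers, 7 were called higher in T3 than in T0, and 3 in T5 than in T0. In T5 against T3, 4 were called lower and 0 higher.

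Promoter windows of RefSeq (GRCm38.p6, 250 bases before to 50 after the transcription start) were given for 7 of the 10 genes. The windows of 5 genes are printed here because they carry the groups of the results: Fzd4 and Vangl2, which were lower in every isolated replicate, Ctnnb1, which was higher, and Fzd7 and Axin2, which did not pass the test. They lie at chr7:89404116-89404415 on the plus strand (Fzd4), chr1:59481897-59482196 on the plus strand (Fzd7), chr1:172027246-172027545 on the minus strand (Vangl2), chr11:108920099-108920398 on the plus strand (Axin2) and chr9:120933150-120933449 on the plus strand (Ctnnb1, the first of 2 windows). Capitals mark 3 short motifs searched on both strands: CTTTG, the core of TCF and LEF sites, CCAAT, the box bound by NF-Y, and TGANTCA, the AP-1 site.

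Fzd4 promoter: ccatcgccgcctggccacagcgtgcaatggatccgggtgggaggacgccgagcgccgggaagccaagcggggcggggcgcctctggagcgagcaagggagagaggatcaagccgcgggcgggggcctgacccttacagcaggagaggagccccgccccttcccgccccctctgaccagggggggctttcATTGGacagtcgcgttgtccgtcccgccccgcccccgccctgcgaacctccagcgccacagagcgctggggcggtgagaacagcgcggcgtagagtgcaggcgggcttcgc
Fzd7 promoter: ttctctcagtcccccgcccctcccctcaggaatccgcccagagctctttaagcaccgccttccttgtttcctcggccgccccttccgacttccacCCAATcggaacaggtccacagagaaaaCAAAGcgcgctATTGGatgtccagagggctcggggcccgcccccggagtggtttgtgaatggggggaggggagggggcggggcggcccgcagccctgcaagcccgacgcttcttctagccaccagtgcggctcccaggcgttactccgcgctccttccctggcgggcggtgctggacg
Vangl2 promoter: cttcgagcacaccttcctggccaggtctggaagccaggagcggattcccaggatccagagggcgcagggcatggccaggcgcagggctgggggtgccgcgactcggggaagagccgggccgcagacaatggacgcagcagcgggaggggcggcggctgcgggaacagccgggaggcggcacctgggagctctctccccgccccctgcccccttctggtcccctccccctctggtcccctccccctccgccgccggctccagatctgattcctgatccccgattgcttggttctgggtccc
Axin2 promoter: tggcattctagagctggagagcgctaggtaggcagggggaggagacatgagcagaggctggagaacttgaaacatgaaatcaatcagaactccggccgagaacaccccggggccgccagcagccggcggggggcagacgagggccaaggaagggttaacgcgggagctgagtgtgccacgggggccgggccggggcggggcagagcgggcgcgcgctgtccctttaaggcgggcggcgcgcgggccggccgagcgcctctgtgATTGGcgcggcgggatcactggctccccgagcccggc
Ctnnb1 promoter: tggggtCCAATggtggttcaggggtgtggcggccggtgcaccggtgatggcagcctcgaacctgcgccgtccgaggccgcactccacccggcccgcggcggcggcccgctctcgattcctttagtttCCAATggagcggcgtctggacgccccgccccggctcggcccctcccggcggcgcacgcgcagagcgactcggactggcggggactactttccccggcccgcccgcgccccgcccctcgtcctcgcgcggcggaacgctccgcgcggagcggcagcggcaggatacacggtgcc

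The CCAAT box was found once in the windows of Fzd4 and Axin2, and at 2 places in those of Fzd7 and Ctnnb1. It occurs in 37.4% of the 32851 promoter windows of the same length. CTTTG was found in the windows of Fzd7 and Tcf7l2, against 53.9% of all windows. TGANTCA was found in none of the members' windows and in 7.81% of all windows. None of the matches printed overlaps another, and a match describes only these letters. The windows of the members held 42.0 to 84.3% G and C, against a median of 52.7% over all windows.

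**Figure D1:**
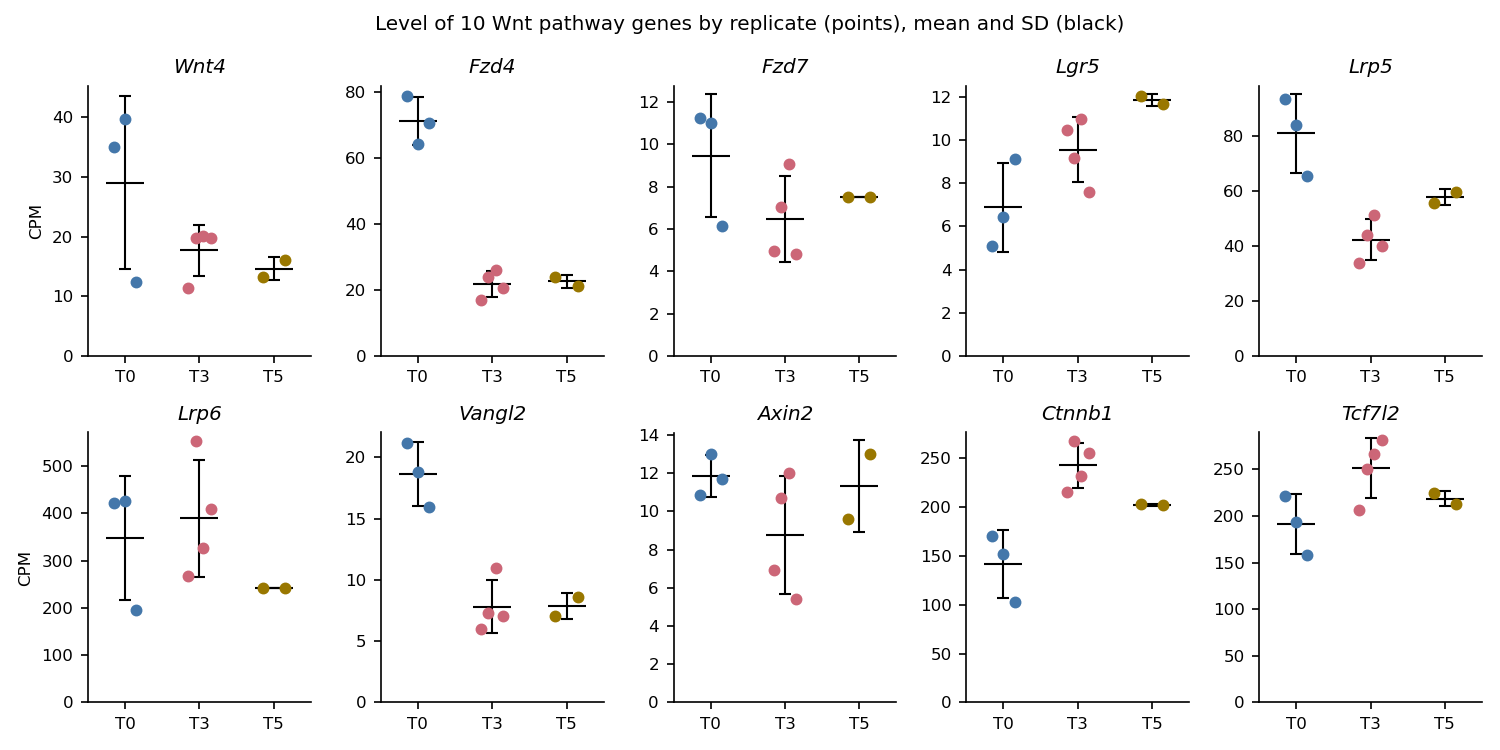
Level in CPM of the 10 genes, 1 panel per gene with its own vertical axis from 0. Points are replicates of T0 (n = 3), T3 (n = 4) and T5 (n = 2), and black marks the mean and SD. Fzd4, Lrp5 and Vangl2 lie lower in each T3 replicate than in each T0 replicate, and Ctnnb1 lies higher.

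Isolation was accompanied by a fall of the receptor Fzd4, the coreceptor Lrp5 and the polarity gene Vangl2 and by a rise of Ctnnb1. Each change is a log2 fold change ± SE, tested with edgeR's quasi-likelihood method on all 3 groups in 1 fit, and a gene was called when its Benjamini-Hochberg adjusted p over all 31999 genes was under 0.05. Relative to T0, 1 of the 10 genes was higher and 3 were lower in T3, and the same 4 were those whose groups did not overlap (38.3% of all genes tested did not). Over all genes tested 37.9% were called, 15.0% higher and 22.9% lower, so that the share of called members, 40.0%, was near that of all genes. The median log2 fold change was −0.49 over the 10 genes and 0.05 over all genes. Without T0 replicate 3, 7 of the 10 genes were called, and so were 50.6% of all genes tested. In bulk libraries such as these, fewer cells of a type and less RNA per cell cannot be told apart. Comparisons of T3 and of T5 with T0 share the T0 libraries.

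Wnt4, the only ligand among the 10 (ENSMUSG00000036856.4, chromosome 4, 137277489 to 137299726, plus strand, GRCm38 here and below), stood at 35.1, 39.7 and 12.4 CPM in T0. In T3 it stood at 11.3, 19.8, 20.1 and 19.7 CPM, and in T5 at 13.2 and 16.0 CPM. The first and the second T0 replicate were above all isolated replicates, and T0 replicate 3 lay among them, so the groups overlapped. The difference of T3 from T0 was −0.71 ± 0.29 on the log2 scale (adjusted p = 0.0560, 95% interval −1.31 to −0.11) and did not pass the test. It was called in 5 of the 17 alternative settings. Without T0 replicate 3 it was −1.07 with an adjusted p of 0.000566, the lowest over the settings, and the highest was 0.364. For T5 against T0 Wnt4 was called lower (log2 −0.99 ± 0.36, adjusted p = 0.0332), although 1 T0 replicate lay below both T5 replicates. That call was lost without T0 replicate 1, T0 replicate 2, T5 replicate A or T5 replicate B, with upper quartile scaling, with a filter at 10 CPM and with only both groups fitted, with adjusted p between 0.000434 and 0.197 over the alternatives. Wnt4 held 24.1% of the summed level per exonic kb of 19 Wnt ligand genes in T0 (range 11.8 to 31.6%), 17.7% in T3 and 12.9% in T5. The largest share in each group was that of Wnt5b, a ligand of noncanonical signalling, at 32.4, 33.3 and 35.5%. Wnt5b overlaps Fbxl14 on the annotation, so its reads are uncertain.

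Fzd4, a Frizzled receptor (ENSMUSG00000049791.4, chromosome 7, 89404355 to 89413134, plus strand), showed the clearest change among the 10 genes. It stood at 78.8, 64.3 and 70.7 CPM in T0, at 17.0, 23.9, 26.1 and 20.7 CPM in T3, and at 24.1 and 21.3 CPM in T5. Every isolated replicate was under every T0 replicate, and the T3 and T5 replicates overlapped. Fzd4 fell 3.25-fold from T0 to T3 (log2 −1.70 ± 0.20, adjusted p = 3.78e-07). In T5 it was still lower than in T0 (log2 −1.65 ± 0.25, adjusted p = 1.91e-05). Between T5 and T3 the difference was 0.05 ± 0.23, with a 95% interval of −0.42 to 0.52. Taken singly, the 4 T5 libraries stood at 17.6 to 30.7 CPM. Fzd4 is also a receptor of endothelial cells. The summed level of 8 endothelial markers was 257 to 298 CPM in T0, 448 to 543 CPM in T3 and 273 to 275 CPM in T5, with 3 of 8 called higher in T3 than in T0 and none lower. None of the 8 was at 0 in any replicate. Tek made up a large part of the sum, with 118 to 200 CPM in T0, 185 to 292 CPM in T3 and 134 to 143 CPM in T5. Pecam1 stood at 18.2 to 33.5, 62.3 to 69.9 and 32.7 to 34.9 CPM. The part of endothelial RNA in the Fzd4 result was not tested.

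Among the 10 Frizzled genes Fzd4 made up 63.5% of the summed level per exonic kb in T0 (58.2 to 69.8%), 31.5% in T3 (29.4 to 32.9%) and 33.97% in T5 (32.9 to 35.005%). It was first in that order in all 9 replicates. Fzd5, another Frizzled receptor, moved the other way, with a mean of 1.13 ± 0.107 CPM (T0, n = 3) against 14.4 ± 2.70 CPM (T3, n = 4), log2 3.68 ± 0.24 (adjusted p = 1.87e-10). Its share was 0.9752% in T0, 20.1% in T3 and 16.0% in T5. The T0 level of Fzd5 was 0.146 to 0.175 CPM per exonic kb. That is under the 95th percentile (0.189 to 0.289 in T0) of the genes taken as not used by muscle, given under Lgr5 below. The change of Fzd5 is thus set against a T0 value near background. The make-up of the Frizzled transcripts therefore differed between fixed muscle and isolated cells. Fzd5 overlaps a predicted gene, Gm38058, so its reads are uncertain to that extent.

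Fzd7 (ENSMUSG00000041075.8, chromosome 1, 59482424 to 59486955, plus strand), the Frizzled that binds Wnt7a in muscle, was much less abundant than Fzd4 in T0 per exonic kb. It stood at 11.3, 11.01 and 6.12 CPM in T0, at 4.94, 7.05, 9.07 and 4.79 CPM in T3, and at 7.52 and 7.501 CPM in T5. The groups overlapped, with T0 replicate 3 inside the range of T3. The log2 difference of T3 from T0 was −0.54 ± 0.25 (adjusted p = 0.0947) and that of T5 from T0 was −0.33 ± 0.30 (adjusted p = 0.400). It passed the test without T0 replicate 3 (−0.78, adjusted p = 0.00988) or without T3 replicate 3 (−0.75, adjusted p = 0.0255), within a range of adjusted p of 0.00988 to 0.456 over the alternatives. The share of Fzd7 among the Frizzled genes was 12.3% in T0, 13.6% in T3 and 16.7% in T5.

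Lgr5, a receptor for the R-spondins that strengthen Wnt signals (ENSMUSG00000020140.15, chromosome 10, 115450311 to 115587780, minus strand), was the least abundant of the 10 genes per exonic kb in T0 and T3. It stood at 5.09, 6.44 and 9.12 CPM in T0, at 10.5, 9.17, 10.96 and 7.58 CPM in T3, and at 12.0 and 11.6 CPM in T5. Both T5 replicates were above every other replicate, while T0 and T3 overlapped. The 4 T5 libraries taken singly stood at 10.7 to 14.1 CPM, the lowest of them under the highest T3 replicate. T5 was called higher than T0 (log2 0.78 ± 0.26, 1.72-fold, adjusted p = 0.0213), and T3 was not (log2 0.47 ± 0.22, adjusted p = 0.109). The T5 call was lost without T0 replicate 1, T0 replicate 2, T5 replicate A or T5 replicate B, and with only both groups fitted (adjusted p 0.000751 to 0.122 over the alternatives). Without T0 replicate 3 the T3 difference was 0.73 (adjusted p = 0.00420, range 0.00420 to 0.363 over the alternatives). Reads from introns were counted too, and over the whole length of the gene Lgr5 had 0.05005 CPM per kb in T0, 0.0694 in T3 and 0.0862 in T5. Per exonic kb, the measure used for the set that follows, it stood at 0.670 CPM in T0, 0.930 in T3 and 1.15 in T5. A set of 1291 receptor and defensin genes, chosen by name and taken as not used by muscle, had 0.0540 to 0.0831 CPM per exonic kb in the T0 replicates. Its T3 range was 0.0694 to 0.0852 and its T5 range 0.0833 to 0.0845. That background level therefore moved in the same direction as Lgr5, and its part in the result was not tested. Per exonic kb, Lgr4, the relative with the largest share, held 91.8% of the sum of Lgr4, Lgr5 and Lgr6 in T0, 86.5% in T3 and 78.6% in T5, and Lgr5 held 3.296, 5.88 and 9.10%. Lgr4 was called lower in T3 (log2 −0.60 ± 0.22, adjusted p = 0.0314), a call lost in 12 of the 17 alternatives (adjusted p up to 0.268). These were both other scalings, DESeq2, the fit of only both groups, the replicate block, and the fits without T0 replicate 1 or 2, T3 replicate 1, 2 or 3, or T5 replicate A or B. In T5 Lgr4 was called lower than in T0 (log2 −1.07), a call lost in 1 of 16 alternatives, the fit without T5 replicate B.

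Lrp5 and Lrp6, the coreceptors of the canonical branch, did not behave alike. Lrp5 (ENSMUSG00000024913.16, chromosome 19, 3584828 to 3686564, minus strand) stood at 93.2, 83.8 and 65.3 CPM in T0, at 33.8, 43.8, 51.3 and 40.1 CPM in T3, and at 55.6 and 59.6 CPM in T5. The 3 groups did not overlap: T0 was highest, T5 lay between, and T3 was lowest. Lrp5 fell 1.91-fold from T0 to T3 (log2 −0.93 ± 0.20, adjusted p = 0.000633). The step from T3 to T5, 0.45 ± 0.23 (adjusted p = 0.421), and the difference of T5 from T0, −0.49 ± 0.25 (adjusted p = 0.132), did not pass the test. T5 was called lower than T0 without T0 replicate 3 (−0.62, adjusted p = 0.0133, range 0.0133 to 0.511 over the alternatives) and with the 4 T5 libraries as replicates (−0.51, adjusted p = 0.0276). T5 was called higher than T3 with the 10 CPM filter (0.58, adjusted p = 0.0440, range up to 0.998), where 8.29% of all genes tested were called. The 4 T5 libraries taken singly stood at 51.3 to 61.6 CPM, the lowest of them level with the highest T3 replicate.

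Lrp6 (ENSMUSG00000030201.15, chromosome 6, 134446476 to 134566965, minus strand) stood at 423, 425 and 196 CPM in T0 and at 267, 553, 327 and 410 CPM in T3. In T5 it stood at 241 and 243 CPM. T0 and T3 overlapped over most of their range, and both T5 replicates were under every T3 replicate. The log2 difference of T3 from T0 was 0.16 ± 0.27 (adjusted p = 0.692) and changed sign without T0 replicate 3 (−0.12) or T3 replicate 2 (−0.05). T5 against T3 gave −0.69 ± 0.31 (unadjusted p = 0.0400, adjusted p = 0.356). Without T0 replicate 3, T5 was called lower than T0 (−0.81, adjusted p = 0.0216), and the adjusted p was 0.219 with all replicates and 0.0216 to 0.709 over the alternatives. Per exonic kb, Lrp6 held 74.3% of the sum of both coreceptors in T0, 86.2% in T3 and 74.9% in T5. Lrp5 held the remaining 25.7% in T0 (21.7 to 31.9%), 13.8% in T3 (10.01 to 18.1%) and 25.1% in T5 (24.4 to 25.7%). The Lrp5 share of T3 thus lay under that of every T0 and T5 replicate.

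Vangl2 (ENSMUSG00000026556.15, chromosome 1, 172000960 to 172028444, minus strand), the planar polarity protein that works with Fzd7, stood at 21.1, 18.8 and 16.0 CPM in T0. In T3 it stood at 6.00, 7.28, 10.98 and 7.01 CPM, and in T5 at 7.09 and 8.63 CPM. All isolated replicates were under all T0 replicates. Vangl2 fell 2.38-fold from T0 to T3 (log2 −1.25 ± 0.22, adjusted p = 6.65e-05) and was 2.37-fold lower in T5 than in T0 (log2 −1.25 ± 0.27, adjusted p = 0.000884). Between T5 and T3 the difference was 0.01 ± 0.25, with a 95% interval of −0.51 to 0.53. Its paralogue Vangl1 fell with it (log2 −1.53 ± 0.20, adjusted p = 1.86e-06). The share of Vangl2 in the sum of both genes per exonic kb was 61.7% in T0, 65.5% in T3 and 60.9% in T5, with overlapping ranges.

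Axin2, a scaffold of the destruction complex and a direct target of canonical signalling (ENSMUSG00000000142.15, chromosome 11, 108920349 to 108950783, plus strand), stood at 10.8, 13.0 and 11.7 CPM in T0. In T3 it stood at 6.94, 10.7, 12.0 and 5.42 CPM and in T5 at 9.63 and 13.0 CPM. The T3 replicates fell into a lower and a higher pair, and only the highest replicate, at 12.0 CPM, lay within the T0 range. None of the 3 comparisons passed the test: −0.43 ± 0.24 for T3 against T0 (adjusted p = 0.182), 0.37 ± 0.27 for T5 against T3 (adjusted p = 0.603) and −0.07 ± 0.29 for T5 against T0 (adjusted p = 0.869). The 95% interval for T3 against T0 ran from −0.94 to 0.07 on the log2 scale. Axin1, the related scaffold, was called higher in T3 than in T0 (log2 0.84 ± 0.21, adjusted p = 0.00203). Axin2 held 12.5% of the sum of both genes per exonic kb in T0, 5.37% in T3 and 8.14% in T5.

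Ctnnb1 (ENSMUSG00000006932.16, chromosome 9, 120929216 to 120960507, plus strand), which encodes β-catenin, stood at 170, 152 and 103 CPM in T0. In T3 it stood at 216, 268, 232 and 255 CPM and in T5 at 203 and 202 CPM. Every isolated replicate was above every T0 replicate, and both T5 replicates were under every T3 replicate. The 4 T5 libraries taken singly stood at 185 to 227 CPM, the highest of them above the lowest T3 replicate. Ctnnb1 rose 1.71-fold from T0 to T3 (log2 0.78 ± 0.21, adjusted p = 0.00542). T5 against T0 gave 0.52 ± 0.25 (adjusted p = 0.114, called in 4 of 16 alternatives with adjusted p 0.000249 to 0.351), and T5 against T3 gave −0.26 ± 0.24 (adjusted p = 0.675). The gene shares 5157 bases with Ulk4 on the other strand, and the counts hold reads of both strands. Ulk4 had a mean of 45.4 CPM in T0, 75.2 CPM in T3 and 73.9 CPM in T5, so the values of Ctnnb1 are uncertain by the reads of Ulk4 they may hold.

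Tcf7l2 (ENSMUSG00000024985.18, chromosome 19, 55741820 to 55933654, plus strand), a TCF factor that brings β-catenin to DNA, stood at 222, 193 and 158 CPM in T0. In T3 it stood at 207, 250, 266 and 281 CPM and in T5 at 224 and 213 CPM. The groups overlapped between 207 and 222 CPM. The log2 difference of T3 from T0 was 0.39 ± 0.21 (adjusted p = 0.149), and it was called with upper quartile scaling (0.70) and with a filter at 10 CPM, with adjusted p between 0.000459 and 0.324 over the alternatives. Upper quartile scaling raised the all-gene median by 0.27 on the log2 scale, so that this difference relative to all genes moved little. Of the summed level per exonic kb of the 4 TCF and LEF genes, Tcf7l2 held 31.1% in T0 (29.4 to 32.7%), 37.6% in T3 (36.9 to 38.3%) and 33.2% in T5 (32.7 to 33.8%). The largest share in each group was that of Tcf7l1, at 63.2% in T0, 46.4% in T3 and 48.1% in T5. Tcf7, another TCF factor, rose from 8.18 ± 0.682 to 29.7 ± 5.02 CPM between T0 (n = 3) and T3 (n = 4), by 1.86 ± 0.21 on the log2 scale (adjusted p = 2.21e-07). Its share was 4.54% in T0, 14.9% in T3 and 17.2% in T5.

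**Figure D2:**
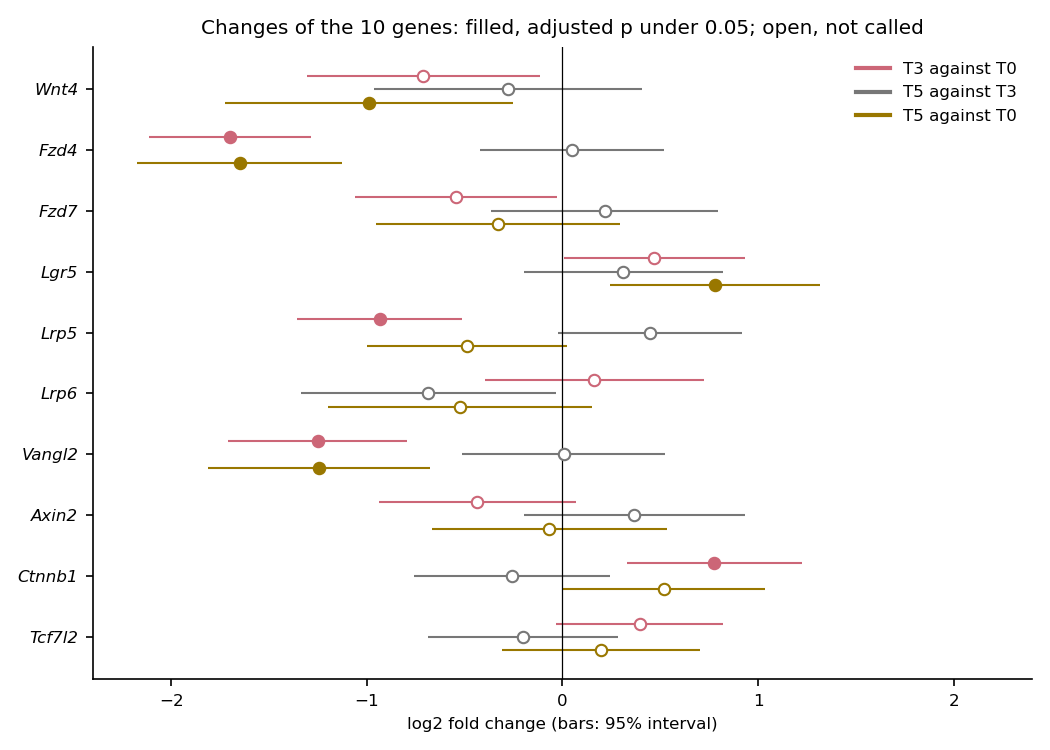
Log2 fold change of each of the 10 genes (horizontal axis) for T3 against T0, T5 against T3 and T5 against T0, with bars for the 95% interval from edgeR's quasi-likelihood test. Filled points were called at an adjusted p under 0.05. Of the 10 genes, 4 are filled for T3 against T0, 4 for T5 against T0 and none for T5 against T3.

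The added 2 h were not accompanied by a called change in any of the 10 genes. For T5 against T3 edgeR's quasi-likelihood test called 0 of the 10 genes, 1 of them (Lrp6) had an unadjusted p under 0.05, and DESeq2 called 0. Over all genes 2.17% were called and 12.8% had an unadjusted p under 0.05. Lgr5 and Lrp5 were above and Lrp6 and Ctnnb1 under all T3 replicates in both T5 replicates, 4 of 10 genes without overlap, against 38.2% of all genes tested. This rests on the summed T5 libraries: taken singly, those of Lgr5 and Ctnnb1 overlapped the T3 replicates. The median log2 fold change was 0.03 over the 10 genes and 0.05 over all genes. For T5 against T0, 1 gene was higher (Lgr5) and 3 were lower (Wnt4, Fzd4 and Vangl2), against 13.2% higher and 22.5% lower of all genes, 35.7% in all. In 5 of the 10 genes the T5 and T0 replicates did not overlap, against 59.3% of all genes. The calls of Fzd4 and Vangl2 held in each of the 16 alternatives, and those of Wnt4 and Lgr5 were lost in some of them. Without T0 replicate 1, T0 replicate 2, T5 replicate A or T5 replicate B, 2 of the 10 genes were called, and without T0 replicate 3 there were 6. The share of all genes called was 33.2, 30.4 and 55.6% without T0 replicate 1, 2 and 3, and 7511 of 33533 and 7392 of 33579 genes were called without T5 replicate A and B.

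Between genes, levels were compared per exonic kb. In T0 the order was Ctnnb1 (27.3 ± 6.76 CPM per kb, mean ± SD, n = 3), Lrp6 (25.5 ± 9.63) and Tcf7l2 (21.8 ± 3.66), whose ranges of mean ± SD overlapped. Fzd4 (10.6 ± 1.08), Lrp5 (8.29 ± 1.46) and Wnt4 (6.93 ± 3.47) followed, and neighbours again overlapped. Vangl2 (2.67 ± 0.371), Axin2 (2.15 ± 0.199) and Fzd7 (2.09 ± 0.639) formed the next overlapping group, and Lgr5 (0.670 ± 0.200) was last. In T3 the effectors and Lrp6 were again on top, with Ctnnb1 at 46.7 ± 4.52, Tcf7l2 at 28.6 ± 3.68 and Lrp6 at 28.5 ± 9.06 CPM per kb (n = 4). Fzd4 stood behind Lrp5 and Wnt4 there, at 3.26 ± 0.592 CPM per kb. Because reads from introns were counted, these levels depend on the length used: over the whole gene Fzd4 led in T0 with 8.12 CPM per kb and Tcf7l2 had 0.995.

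**Figure D3:**
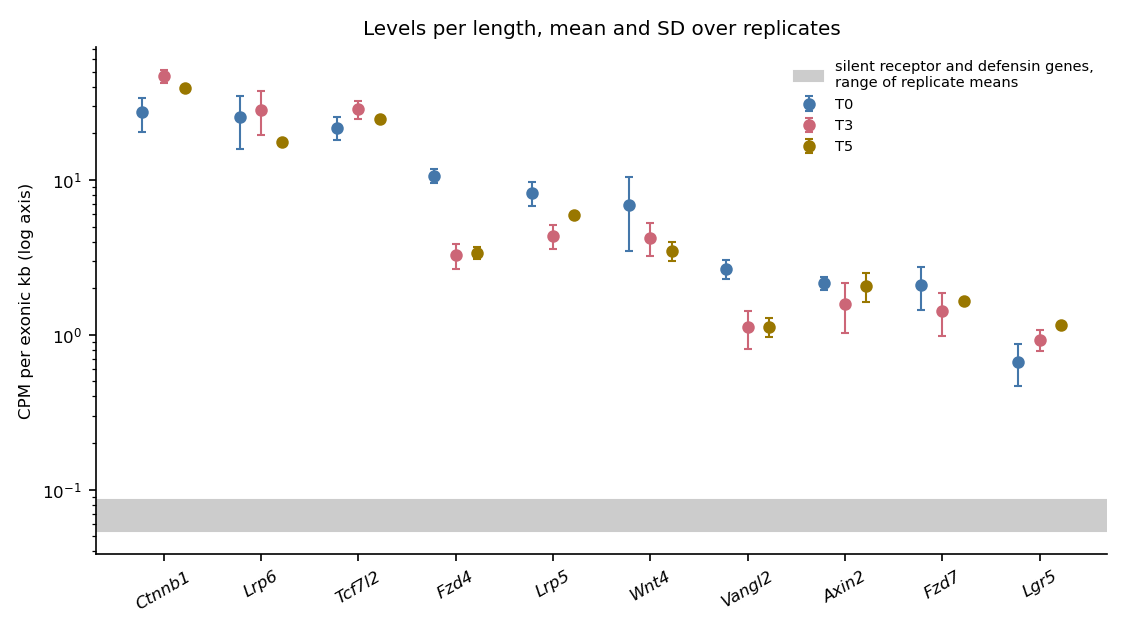
Level per exonic kb (CPM per kb, log axis) of the 10 genes, ordered by T0, as mean and SD over replicates of T0 (n = 3), T3 (n = 4) and T5 (n = 2). The grey band is the range of the replicates' means over 1291 genes taken as not used by muscle. Each of the 10 genes lies above the band, with Lgr5 in T0 nearest to it.

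A list of 100 other genes of the pathway placed the members among their partners. All 100 passed the filter on low counts. For T3 against T0, 17 were called higher and 24 lower (41.0%), with a list median of 0.15 on the log2 scale. In T5 against T3, 2 were higher and 0 lower (2.0%), and in T5 against T0, 15 were higher and 23 lower (38.0%). These shares were near those of all genes, 37.9, 2.17 and 35.7%. Without T0 replicate 3 the list had 65, 9 and 69 calls in these comparisons, where 50.6, 7.93 and 55.6% of all genes were called. For T5 against T3 it had 0 calls without T5 replicate A and 1 without T0 replicate 2, any single T3 replicate or T5 replicate B. For T5 against T0 it had 22 calls without T5 replicate A and 21 without T5 replicate B, beside the lower counts of all genes in these fits, given above. In all 9 replicates 8 of the 100 genes (Wnt1, Wnt5a, Wnt10b, Dkk1, Dkk4, Sost, Celsr3 and Sp5) stayed under the 95th percentile of the genes taken as not used by muscle. The counts by role given below for T3 against T0 stand beside 15.0% higher and 22.9% lower of all genes.

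Of 18 ligand genes besides Wnt4, T3 had 1 higher and 2 lower than T0. Wnt11, a noncanonical ligand, rose from 1.27 ± 0.651 to 4.13 ± 1.41 CPM (log2 1.68 ± 0.31, adjusted p = 0.000123), and Wnt9a fell from 8.23 ± 0.282 to 4.06 ± 1.26 CPM (log2 −1.01 ± 0.23, adjusted p = 0.000842). Wnt11 had 0.214 to 0.488 CPM per exonic kb in T0, near the 95th percentile (0.189 to 0.289) of the genes taken as not used by muscle. Wnt2b fell by 0.77 on the log2 scale (adjusted p = 0.00428). Of 6 genes for ligand secretion and R-spondins 2 were lower and none higher. These were Porcn, which adds the lipid to Wnt proteins (log2 −1.54 ± 0.24, adjusted p = 1.94e-05), and Wls, which carries them to the surface (log2 −0.66 ± 0.19, adjusted p = 0.00840).

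Of 14 other receptors and coreceptors 3 were called higher and 4 lower. Ror1, a receptor of noncanonical ligands, fell from 3048 ± 913 CPM (T0) to 587 ± 107 CPM (T3), log2 −2.38 ± 0.25 (adjusted p = 6.76e-08), beside the rise of Fzd5 given above. Ryk, another noncanonical receptor, fell by 0.70 on the log2 scale (adjusted p = 0.00861). Ror2 was called in T5 against T3 (log2 0.79 ± 0.21, adjusted p = 0.0499), a call lost with DESeq2 size factors and without any of T0 replicate 2, the 4 T3 replicates or either T5 replicate, with adjusted p up to 0.652. For T5 against T0 Ror2 was called higher (log2 1.38), a call kept in all 16 alternatives. For T3 against T0 it was also called higher (log2 0.58), a call lost in 6 of 17 alternatives. Of 17 extracellular and membrane inhibitors 2 were higher and none lower in T3. Znrf3, a ligase that removes Frizzled receptors and is itself a Wnt target, rose from 194 ± 49.3 to 344 ± 29.4 CPM (log2 0.83 ± 0.22, adjusted p = 0.00364). Dkk3 was called higher (log2 0.78 ± 0.25, adjusted p = 0.0166), a call lost without T0 replicate 1 or T0 replicate 2.

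The destruction complex and Dishevelled genes, which act between receptor and β-catenin, moved in both directions. Of 13 genes, T3 had 5 higher and 3 lower than T0. Gsk3b, a kinase that marks β-catenin, fell from 212 ± 35.8 to 88.7 ± 6.39 CPM (log2 −1.26 ± 0.20, adjusted p = 1.54e-05). Btrc, which tags β-catenin for destruction, stood at 101.3 ± 27.8 CPM in T0 and fell to 34.8 ± 1.45 CPM in T3 (log2 −1.54 ± 0.21, adjusted p = 2.01e-06). Amer1, which binds APC, fell by 1.72 on the log2 scale (adjusted p = 1.05e-06). The 5 called higher were Apc (log2 0.95), Csnk1a1 (0.95), Axin1 (0.84), Gsk3a (0.66) and Dvl1 (0.56). The call of Dvl1 was lost in 11 of 17 alternatives, and the others were kept in all 17. Of 12 nuclear factors 2 were called higher, Tcf7 and Tle4 (log2 1.48), and 5 lower. Pygo1, a partner of β-catenin, fell by 2.05 (adjusted p = 2.29e-07), and Tle2, a corepressor of TCF factors, fell by 1.79 on the log2 scale (adjusted p = 3.63e-07).

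Within the planar polarity and noncanonical role of the list, the called genes all lay in 1 direction. Of 12 such genes besides Vangl2, 7 were lower and none was higher in T3 than in T0, against 22.9% lower and 15.0% higher of all genes. Their median log2 fold change was −0.76 against 0.05 over all genes. Prickle1, 1 of the 7, lost its call with the replicate block (adjusted p = 0.0733). Noncanonical genes counted under other roles went both ways in T3: Wnt11 and Ror2 were called higher, and Ror1 and Ryk lower. Intu, a polarity effector, fell from 27.5 ± 5.80 to 7.57 ± 0.521 CPM (log2 −1.86 ± 0.20, adjusted p = 1.27e-07), next to Vangl1, given above. Fuz, another effector, fell by 1.06 on the log2 scale (adjusted p = 0.000132) but overlaps Ap2a1, so its reads are uncertain. In T5 against T0, 5 of the 12 were lower and none higher, against 22.5% lower of all genes. Of these 5, Ankrd6 lost its call in 10 of 16 alternatives, among them each fit without T0 replicate 2, a T3 replicate or a T5 replicate, and Celsr2 lost its call without T5 replicate A or B. Both were named after their values were seen.

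Of 8 feedback and target genes 4 were higher and 1 was lower in T3 than in T0. Cd44, which encodes an adhesion receptor, rose from 46.6 ± 6.01 to 1038 ± 58.7 CPM (log2 4.48 ± 0.25, adjusted p = 1.96e-11). Myc rose from 43.4 ± 24.8 to 490 ± 36.6 CPM (log2 3.50 ± 0.35, adjusted p = 3.68e-08), and Bambi rose from 1.36 ± 0.231 to 4.78 ± 0.769 CPM (log2 1.82 ± 0.24, adjusted p = 1.97e-06). Cd44, Myc and Bambi are also known as targets of other pathways. Ccnd1, which encodes cyclin D1, fell from 18.4 to 8.19 CPM between T0 and T3 (log2 −1.17, adjusted p = 9.33e-05). From T3 to T5 it rose to 21.0 ± 1.45 CPM (n = 2), by 1.36 ± 0.23 on the log2 scale (adjusted p = 0.00136), a call lost without T5 replicate A (adjusted p = 0.0509, the highest over the alternatives). Ccnd1 overlaps LTO1 on the annotation.

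Ror1, Fzd5, Wnt11 and Porcn were also called in T5 against T0, each in the direction it had in T3. Ror1 stood at 466 CPM (log2 −2.71 ± 0.32, adjusted p = 1.09e-06) and Fzd5 at 10.97 ± 0.333 CPM (log2 3.28 ± 0.26, adjusted p = 4.01e-09). Wnt11 stood at 6.55 ± 0.301 CPM (log2 2.35 ± 0.35) and Porcn at 2.53 ± 0.164 CPM (log2 −2.08 ± 0.31), with adjusted p of 1.31e-05 and 1.53e-05. These T5 values are again set against the T0 libraries used for T3. Of the 17 extracellular and membrane inhibitors, 3 were called higher and 1 lower in T5 than in T0, against 13.2% higher and 22.5% lower of all genes. Kremen2 was higher (log2 2.26) and was called in all 15 alternatives. Dkk3 was higher (log2 0.87), a call lost in 5 of 15. Kremen1, a membrane inhibitor that removes Lrp6 from the surface, was the 1 called lower and fell from 221 ± 73.5 to 126 ± 5.72 CPM (log2 −0.81 ± 0.28, adjusted p = 0.0251). That call was lost with upper quartile scaling, with only both groups fitted, and without T0 replicate 1, T0 replicate 2, T5 replicate A or T5 replicate B (adjusted p up to 0.203). Ror1, Wnt11 and Kremen1 overlap other annotated genes, so their reads are uncertain to that extent.

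**Figure D4:**
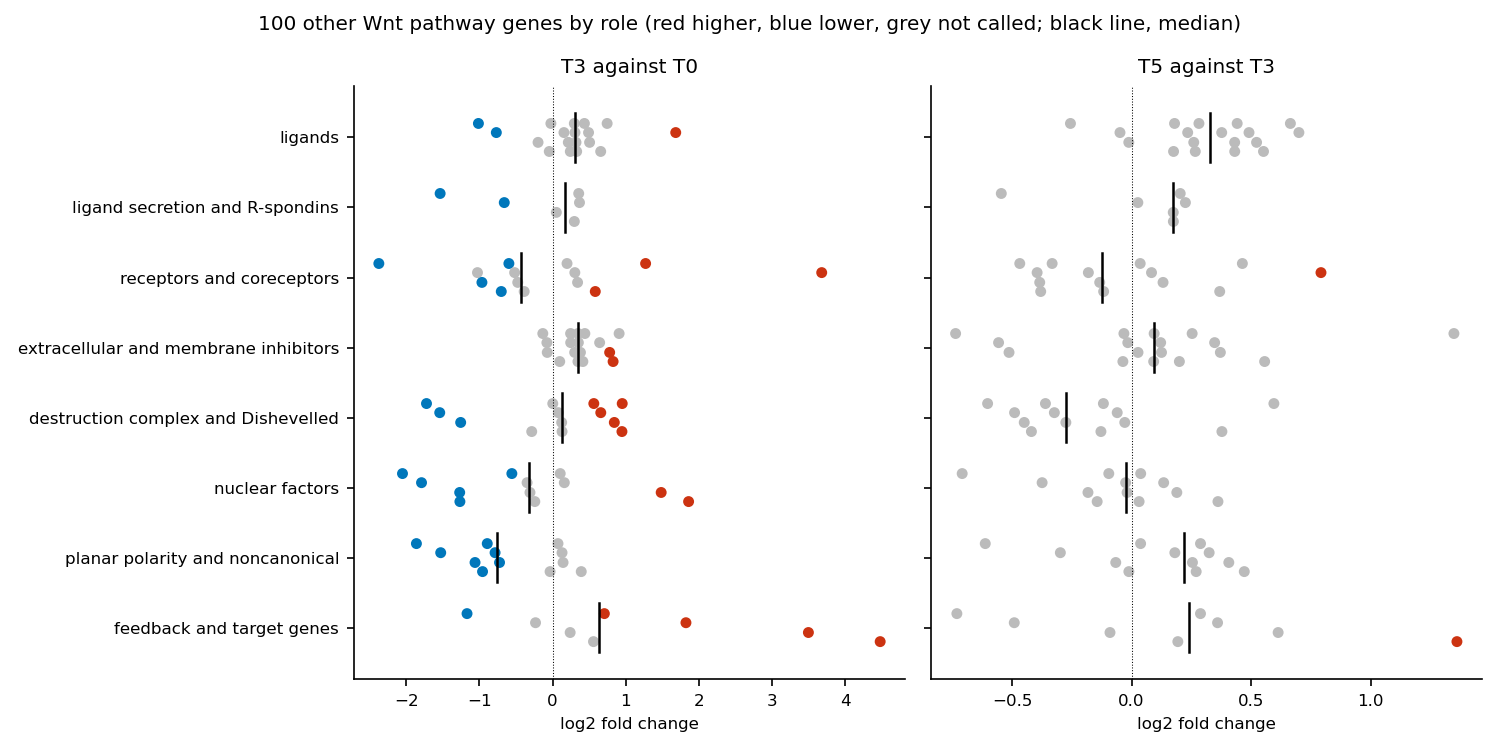
Log2 fold changes of 100 other Wnt pathway genes by role, for T3 against T0 (left) and T5 against T3 (right). Each point is a gene, red if called higher, blue if called lower and grey if not called, and the black line is the median of the role. In the left panel 17 genes are red and 24 are blue, and all 7 called planar polarity and noncanonical genes are blue. In the right panel 2 are red.

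The genes most like each member in pattern were taken from 2468 well expressed genes by Pearson's correlation of log2 CPM over the 9 replicates. These replicates fall into fixed muscle and isolated cells and share their libraries, so the values describe likeness only. Fzd4 was most like Dap (0.990) and Lifr (0.989), and Vangl2 was most like Loxl1 (0.992) and Ccdc134 (0.992). Lrp5 was most like Hey1 (0.983), and Ctnnb1 was most like Tollip (0.998) and Rela (0.996). Wnt4 was most like Wdtc1 (0.981), Lrp6 most like Nudc (0.993), Lgr5 most like Tmem132b (0.965), Tcf7l2 most like Ap2m1 (0.971) and Fzd7 most like Sh3bp5l (0.931). Axin2 had the weakest likeness, 0.799 with Fam20c. By this measure the pattern of Axin2 was thus matched less closely by other genes than that of the other 9.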

How the data were processed

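Total RNA of the fixed cells, taken up with an extraction kit made for formalin-fixed samples, was sequenced from directional libraries as 65-bp single-end reads, per the labels' protocols. The authors deposited raw counts of reads per gene. The tools in the submitters' processing notes are DESeq2 1.12.3 with R 3.3.1, featureCounts 1.4.6-p3 and STAR 2.5.0a, on the build GRCm38, and the annotation release and strand setting are not given in the sources used here. Tsix had 1.00 to 1.01 times the count of Xist, its partner on the other strand, and counts rose with intron length, so the counts hold both strands and introns, and overlapping genes are uncertain. Of 48709 identifiers, 48349 matched GENCODE vM21 (GRCm38), which gave symbols, coordinates and exonic lengths.

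Column names gave the group, but their numbers match no letter of the T0 and T3 titles. T5 libraries that share a letter were summed. Same-numbered T0 and T3 columns were not treated as pairs.

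CPM used TMM scaling. Tests used edgeR 4.0.16 (R 4.3.3), its quasi-likelihood F test, two-sided, filterByExpr by group, 3 groups in 1 fit, Benjamini-Hochberg over 31999 genes, called at 0.05; SE is the absolute log2 fold change over the root of F. The script was tested on simulated data. For T3 against T0, 4807 genes were higher and 7332 lower (7159 and 5798 with upper quartile scaling); for T5 against T0, 4229 and 7184 (7144 and 5626). Upper quartile scaling raised the all-gene median of the log2 fold changes by 0.27 and 0.32. Alternatives were upper quartile and DESeq2 size factors, no filter or one at 10 CPM, DESeq2 1.42.0, 4 separate T5 libraries, only the groups compared, a replicate block, each of the 9 replicates left out, and whole-gene length.

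The members and gene lists were chosen with earlier results of these data known. Named are all 10 members and, by role and comparison, up to 3 called list genes with the smallest p, and for likeness the 2 genes with the highest correlation among those whose mean log2 CPM was 4 or more. Wnt5b, Lgr4, Axin1, the other list genes named as relatives of a member, and Ccnd1 and Ror2 in T3 against T0 were named after their values were seen. So were Apc, Csnk1a1, Gsk3a, Dvl1, Tle4 and Prickle1. Other marker lists, summed in CPM over T0, T3 and T5, were fibro-adipogenic (198 to 356, 152 to 203, 123 to 127), macrophage (22.8 to 47.8, 33.5 to 50.6, 36.8 to 40.4), pericyte and smooth muscle (119 to 219, 110 to 199, 121 to 129) and Schwann cell markers (39.6 to 45.3, 47.9 to 57.8, 47.9 to 50.5). Dpt and Cd34 made up a large part of the fibro-adipogenic sum in T0, at 81.5 to 164 and 76.0 to 167 CPM. In T5 they stood at 34.9 to 37.6 and 15.9 to 17.1 CPM. Col1a1 went the other way, from 5.04 to 9.47 CPM in T0 to 34.3 to 36.0 CPM in T5. Of the 8 fibro-adipogenic markers, 2 were called higher and 2 lower in T3 against T0, and again in T5 against T0. Protein sequences were not used here.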

Additional observations from a re-analysis of the deposited data

Results flagged for a closer look

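Wnt4 in T3 replicate 1 stood at 11.3 CPM, apart from the other T3 replicates at 19.7 to 20.1 CPM: its gap to the nearest was 0.959 of the group's range, above Dixon's 95% critical value for 4 samples. Among the 10 genes tested in T3 it alone passed that limit, and chance passes it in about 1 in 20 groups. Groups T0 and T5 are too small for this test.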

How the results depend on the processing

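The 4 genes called for T3 against T0 kept their direction and call in all 17 alternatives, and 2 of the 4 called for T5 against T0 (Fzd4 and Vangl2) in all 16. Of the members' log2 fold changes for T3 against T0, 158 kept direction and side of the threshold, 10 passed it newly and 2 changed sign; for T5 against T3 these were 149, 1 and 10, and for T5 against T0 133, 9 and 6, with 12 calls lost. Among called genes of the pathway list none changed sign, and 10 of 41, 2 of 2 and 17 of 38 lost the call in some alternative (T3 against T0, T5 against T3, T5 against T0). With a filter at 10 CPM, which tests fewer genes (11386), 7894 genes (69.3%) were called for T3 against T0 and 7530 (66.1%) for T5 against T0. For T5 against T3 it called 8.29% of genes and 1 member (Lrp5, log2 0.58, adjusted p = 0.0440). For T5 against T3, 695 genes (2.17%) became 1213 (2.64%) without a filter. They became 2122 (6.7%) with 4 separate T5 libraries and 2993 (9.51%) with only these groups fitted. The list's 2 calls became 1 with DESeq2 size factors, 6 with 4 libraries and 11 with only these groups. Leaving out 1 replicate gave, for T3 against T0, 4 to 7 members and 35 to 65 list genes; for T5 against T3, 184 to 2503 genes, 0 members and 0 to 9 list genes; and for T5 against T0, 7392 to 17556 genes, 2 to 6 members and 21 to 69 list genes, with the most each time without T0 replicate 3. The cause was not tested.

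Changes of sign were in differences that did not pass the test. Lrp6 for T3 against T0 ran from −0.12 to 0.33 with 1 replicate left out. For T5 against T3, Fzd4 was −0.051 with DESeq2 size factors and in DESeq2 and −0.054 to 0.14 with 1 replicate left out, and Vangl2 was −0.092 in both and −0.14 to 0.22. For T5 against T0, Fzd7 was 0.056 with upper quartile scaling, and Axin2 was 0.27 with it, 0.12 with the 10 CPM filter, 0.11 with only these groups and −0.30 to 0.16 with 1 replicate left out.

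With the column number as a replicate block, 10223 genes were called for T3 against T0 against 12139 without it, with 4 members and 34 list genes. Same-numbered columns correlated at −0.17, 0.21 and 0.22, so the numbers were not taken to pair the samples, and not every sample correlated best with its own number. Under the block 7 of the 41 list genes lost their call for T3 against T0: Wls (adjusted p = 0.0580), Lgr4, Ror2, Dvl1, Tle3, Prickle1 and Dact1. T5 replicates carry letters, so no block could be made for them. Levels per kb of the whole gene were lower than per exonic kb for the 9 members with introns.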
